A study of Mus musculus with 18 samples.

Results

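The 10 genes described here encode the KMT2 and SETD1 family of histone H3 lysine 4 (H3K4) methyltransferases (Kmt2a, Kmt2b, Kmt2c, Kmt2d, Kmt2e, Setd1a and Setd1b) and 3 demethylases of the KDM5 family (Kdm5a, Kdm5b and Kdm5c). They were taken by symbol from 35275 gene identifiers, a family chosen by the measured levels of Kmt2a and Kmt2c, which had been seen to be higher in libraries labelled HDAC1 or HDAC2 than in wild type. Those 2 contrasts are therefore given as descriptions, without a test. All 10 genes were among the 12223 that reached at least 1 FPKM (fragments scaled to gene length and library size) in at least 3 libraries. RNA was sequenced from 18 libraries of Treg, the Foxp3-expressing CD4+ cells that restrain other immune cells, in 6 groups of 3 described by the submitters as independent biological replicates. Every mouse carried the Foxp3-YFP-cre allele, which makes cre and yellow fluorescent protein in cells that express Foxp3, and the cells were sorted on that fluorescence after CD4 enrichment. The mice were males of 6 to 8 weeks. The wild-type group carried Foxp3-YFP-cre alone, and the other 5 groups carried in addition a floxed allele of Dyrk1, HDAC1, HDAC2, Mef2c or Mef2d. The labels do not say which Dyrk1 gene was floxed, and the growth protocol also speaks of a knockout of Rcor1.

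On mm10 (GENCODE M21 gene bounds) the methyltransferase genes are Kmt2a at chr9:44803355-44881296, Kmt2b at chr7:30568858-30588726, Kmt2c at chr5:25271798-25498783, Kmt2d at chr15:98831669-98871204, Kmt2e at chr5:23434441-23504235, Setd1a at chr7:127776670-127800122 and Setd1b at chr5:123142193-123168629, and the demethylase genes Kdm5a at chr6:120364124-120444574, Kdm5b at chr1:134560171-134635285 and Kdm5c at chrX:152233020-152274535.

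Methylation of H3K4 marks the promoters and enhancers of active genes. KMT2A and KMT2B act with menin at promoters, KMT2C and KMT2D place single methyl groups at enhancers, and SETD1A and SETD1B produce most of the fully methylated form at active promoters. KMT2E has a related SET domain but is not known to methylate H3K4. The KDM5 enzymes remove the higher methylation states. In Treg, Kmt2d has been linked to the marking of enhancers during their development, and the histone deacetylases Hdac1 and Hdac2 share the CoREST complex with another H3K4 demethylase, Kdm1a, and with Rcor1.

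Promoter sequence was at hand for 6 of the 10 genes, from RefSeq on GRCm38.p6, as the 250 bases before the annotated start. The windows of Kmt2a, Kmt2c and Kmt2d are shown because these genes had the 3 largest differences from wild type in the Mef2d-labelled libraries, and that of Kdm5b as 1 of the 3 genes with a window, beside Setd1a and Kdm5c, that passed the test in none of 6 tested comparisons. Capitals mark the GC box, GGGCGG on either strand, counted with overlaps. The sequences run 5′ to 3′ on the strand of the gene. Kmt2a lies at chr9:44881290-44881539 (minus strand), Kmt2c at chr5:25498784-25499033 (minus), Kmt2d at chr15:98871206-98871455 (minus) and Kdm5b at chr1:134559928-134560177 (plus).
Kmt2a: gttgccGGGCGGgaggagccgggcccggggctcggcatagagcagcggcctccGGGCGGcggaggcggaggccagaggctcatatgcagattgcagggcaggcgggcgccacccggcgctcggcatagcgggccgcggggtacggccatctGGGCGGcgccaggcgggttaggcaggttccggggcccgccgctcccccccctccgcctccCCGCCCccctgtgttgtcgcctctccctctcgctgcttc
Kmt2c: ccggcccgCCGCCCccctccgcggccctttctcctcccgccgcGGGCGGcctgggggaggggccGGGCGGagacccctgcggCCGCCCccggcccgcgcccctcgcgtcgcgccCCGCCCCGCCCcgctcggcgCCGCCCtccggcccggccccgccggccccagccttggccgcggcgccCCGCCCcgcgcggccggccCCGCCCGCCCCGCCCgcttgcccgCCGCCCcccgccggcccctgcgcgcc
Kmt2d: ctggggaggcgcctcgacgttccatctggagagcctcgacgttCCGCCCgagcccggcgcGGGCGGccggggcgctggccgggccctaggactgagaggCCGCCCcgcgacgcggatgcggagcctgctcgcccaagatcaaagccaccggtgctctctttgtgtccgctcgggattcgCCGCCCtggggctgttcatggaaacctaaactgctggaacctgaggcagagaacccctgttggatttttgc
Kdm5b: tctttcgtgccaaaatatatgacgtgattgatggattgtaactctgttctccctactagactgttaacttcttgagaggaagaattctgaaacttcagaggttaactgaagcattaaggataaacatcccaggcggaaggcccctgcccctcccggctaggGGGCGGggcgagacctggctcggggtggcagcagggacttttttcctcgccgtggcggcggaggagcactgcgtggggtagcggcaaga
GC boxes numbered 4 in Kmt2a, 12 in Kmt2c, 4 in Kmt2d and 1 in Kdm5b, and 32.7% of the 32851 promoters of the table held at least 1. CG dinucleotides numbered 29, 48, 26 and 13 in the same order, against a median of 6 over all promoters. The windows of Setd1a and Kdm5c held no GC box and 25 and 10 CG dinucleotides. That of Setd1a (chr7:127777139-127777388) lies inside the GENCODE bounds given above, and that of Kdm5c (chrX:152232977-152233226) lies mostly inside them. Sequence further before those GENCODE starts was not searched. The ETS core CCGGAAG, found in 6.91% of all promoters on either strand, was in none of the 6 windows.

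Recovered depth was 15918037 to 24092535 reads per library, and the 10 genes were read 796 times (Setd1a) to 20821 times (Kmt2d) in a library. Foxp3 stood at 82.5 to 117.7 FPKM in the 18 libraries. Of the genes named in the labels, Hdac1 was lower where its deletion was labelled, at 32.0 ± 4.34 FPKM against 119 ± 3.05 in wild type (SD, n = 3). Whole-gene values of Hdac2, Mef2c, Mef2d, Dyrk1a and Dyrk1b were not below wild type in this way, so those groups are called by their labels. B cell markers were high in 3 libraries, Dyrk1 replicate 1, Mef2c replicate 1 and Mef2d replicate 1. The 7 B cell markers summed to between 29.1 and 47.2 FPKM in wild-type libraries. Dyrk1 libraries ranged from 29.7 to 371, and sums were 61.4 to 124 in Mef2c, 49.7 to 172 in Mef2d, 45.5 to 86.4 in HDAC1 and 42.8 to 61.1 in HDAC2 libraries, and none of these was at 0 in any library. The 7 plasma cell markers summed to 1065 to 2847 FPKM in wild type, 1024 to 1206 in Mef2c, 640 to 1712 in Mef2d and 1775 to 2290 in Dyrk1 libraries. Their sums were higher in HDAC1 (2842 to 8395) and HDAC2 (4094 to 12008) libraries. The 5 erythroid markers summed to 25.5 to 388 FPKM in wild type and lower in Dyrk1 (6.55 to 41.6), Mef2c (15.1 to 52.4) and Mef2d libraries (13.2 to 55.5). In each of those comparisons 1 of 5 was called lower, where 6.19%, 6.06% and 7.95% of all tested genes fell. Sums of 7 CD8 T and NK cell markers lay between 27.7 and 119 FPKM. Of these, 3 were called higher in HDAC2 minus wild type, where 16.1% of all tested genes rose. In each of Mef2c and Mef2d minus wild type 1 was called lower, where 6.06% and 7.95% fell. In Dyrk1 minus Mef2c and Dyrk1 minus Mef2d 1 was called higher, where 8.7% and 8.24% rose. Sums of 7 myeloid markers lay between 10.2 and 492 over all libraries. The part of these other cell types in the results was not tested, beyond the values without the B-cell-rich libraries. In bulk RNA, fewer cells of a type and less RNA per cell cannot be told apart.

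Kmt2a, the mixed-lineage leukaemia gene, was lower in wild type than in every other library. Its level was 16.1, 16.7 and 14.1 FPKM in wild type. It was 24.9, 29.7 and 35.9 FPKM in Dyrk1, 42.8, 25.5 and 23.3 in Mef2c and 41.9, 34.2 and 34.6 in Mef2d libraries. In HDAC1 libraries it was 36.9, 32.6 and 35.2 FPKM, and in HDAC2 libraries 46.1, 32.7 and 36.1. The lowest of the 15 other libraries, Mef2c replicate 3, thus stood above the highest wild-type library, while the 5 labelled groups overlapped one another. Mean Kmt2a was 15.6 ± 1.37 FPKM in wild type, 30.2 ± 5.52 in Dyrk1, 30.5 ± 10.6 in Mef2c and 36.9 ± 4.31 in Mef2d libraries (SD, n = 3). The differences on the log2(FPKM + 1) scale were 0.90 (standard error 0.19, adjusted p 0.00727) for Dyrk1, 0.88 (adjusted p 0.00571) for Mef2c and 1.19 (adjusted p 0.000963) for Mef2d minus wild type. These and all adjusted p-values below are limma's, with Benjamini-Hochberg adjustment over the 12223 genes. These 3 comparisons share the wild-type libraries with the HDAC contrasts that drew attention to Kmt2a and Kmt2c. Their results for the family, here and below, are therefore not independent of that choice.

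**Figure D1:**
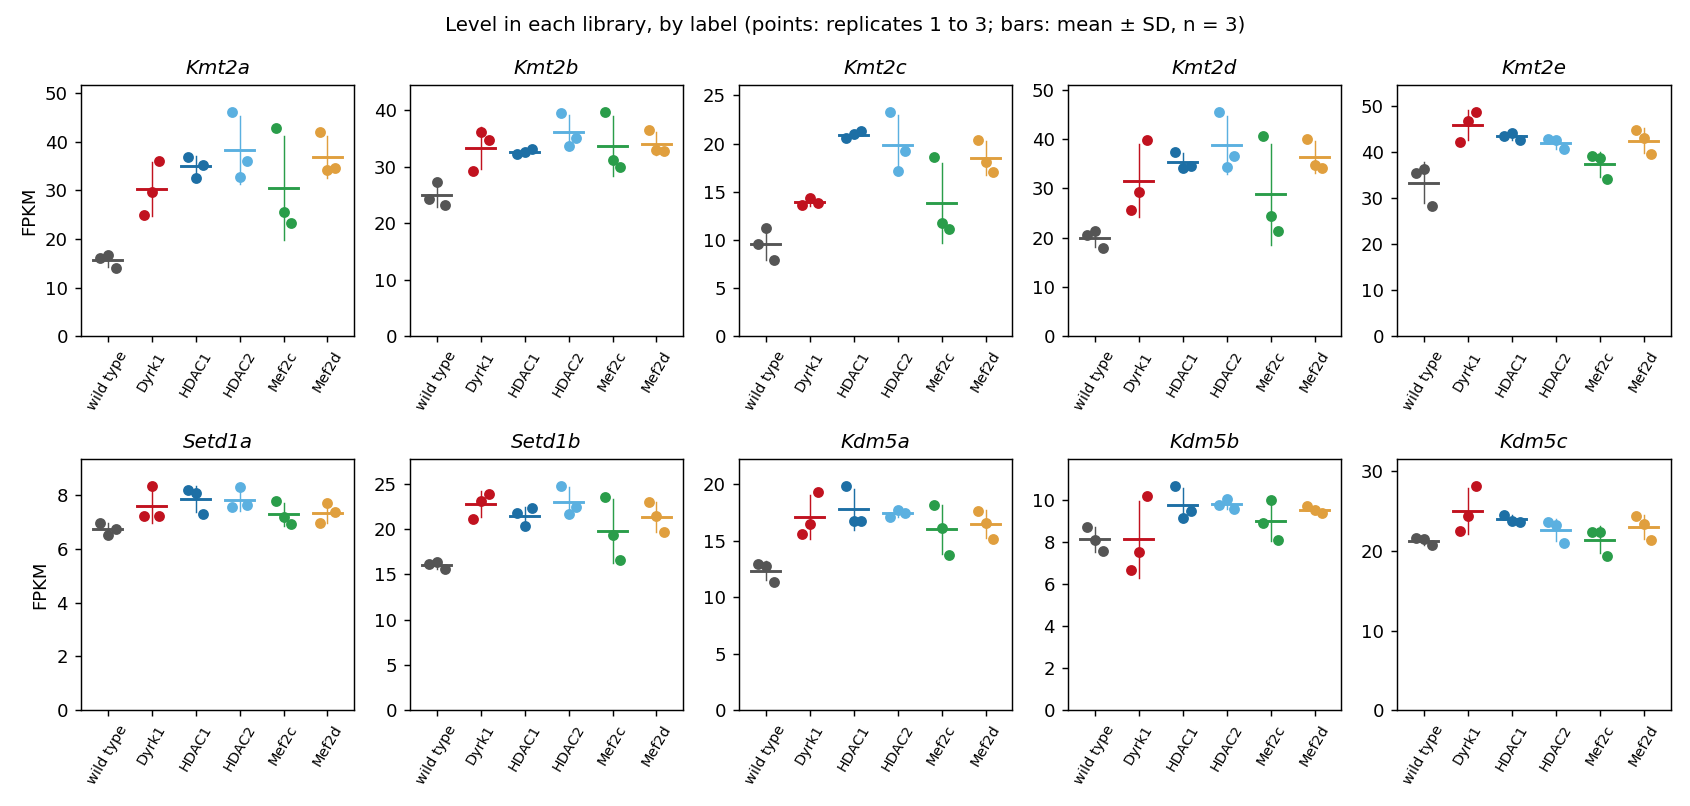
Level of each of the 10 genes in FPKM (vertical axis, from 0) in every library, by label (horizontal axis). Points are replicates 1 to 3, horizontal bars are means and vertical bars are SD (n = 3). Wild-type points lie below all 15 others for Kmt2a, Kmt2b, Setd1b and Kdm5a, and the first Mef2c replicate stands above its group for Kmt2a, Kmt2c and Kmt2d.

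Kmt2b, the close paralog of Kmt2a, was also below all 15 other libraries in wild type, with a smaller span. Wild-type libraries read 24.2, 27.3 and 23.3 FPKM, and the other 15 ranged from 29.1 to 39.6. From a wild-type mean of 24.9 ± 2.10 FPKM, Kmt2b rose to 33.3 ± 3.68 in Dyrk1 (log2 0.40, adjusted p 0.0178), 33.6 ± 5.30 in Mef2c (log2 0.41, adjusted p 0.0145) and 34.1 ± 2.08 in Mef2d libraries (log2 0.44, adjusted p 0.00986).

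Kmt2c and Kmt2d, the enhancer methyltransferases, separated the Mef2d from the Mef2c label more widely than other members, though not past the test. Kmt2c read 9.55, 11.2 and 7.94 FPKM in wild type, 13.6, 14.3 and 13.8 in Dyrk1, 18.6, 11.7 and 11.2 in Mef2c and 20.4, 18.1 and 17 in Mef2d libraries. It read 20.6, 20.96 and 21.3 FPKM in HDAC1 and 23.3, 17.2 and 19.2 in HDAC2 libraries. Mef2c replicate 3 fell just under the highest wild-type library, and the other 14 libraries lay above it. Kmt2c rose in Dyrk1 (log2 0.51, standard error 0.16, adjusted p 0.0382) and Mef2d libraries (log2 0.89, adjusted p 0.00191), and the Mef2c value of 0.47 missed the threshold (adjusted p 0.0516).

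Kmt2d read 20.5, 21.4 and 17.95 FPKM in wild type, 25.7, 29.3 and 39.8 in Dyrk1, 40.5, 24.5 and 21.4 in Mef2c and 40.0, 34.8 and 34.2 in Mef2d libraries. HDAC1 libraries read 37.4, 34.1 and 34.6 FPKM and HDAC2 libraries 45.5, 34.4 and 36.5. Again 14 of 15 labelled libraries stood above wild type, with Mef2c replicate 3 just inside its range. Kmt2d rose in Dyrk1 (log2 0.62, standard error 0.19, adjusted p 0.0406) and Mef2d (log2 0.83, adjusted p 0.00872) libraries, and its Mef2c value was 0.46 (adjusted p 0.11). Within the Mef2c label, replicate 1, which is also rich in B cell markers, held the highest Kmt2a, Kmt2c and Kmt2d. Mef2d replicate 1, rich in those markers too, held the highest level of its group for the same 3 genes. Dyrk1 replicate 1, richer still in those markers, held the lowest of its group for all 3. Without the 3 B-cell-rich libraries the Mef2c value was 0.61 for Kmt2a (adjusted p 0.0104), 0.25 for Kmt2c and 0.19 for Kmt2d.

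Kmt2e, which has the highest mean level of the 10 genes on the FPKM scale, was highest in the Dyrk1 label. It read 42.2, 46.7 and 48.7 FPKM there, 35.5, 36.4 and 28.3 in wild type, 39.1, 38.7 and 34.2 in Mef2c and 44.8, 43.1 and 39.5 in Mef2d libraries. HDAC1 libraries read 42.5 to 44.2 FPKM and HDAC2 libraries 40.6 to 42.8. Kmt2e rose in Dyrk1 (log2 0.45, standard error 0.09, adjusted p 0.0041) and Mef2d libraries (log2 0.35, adjusted p 0.0126), and the Mef2c groups overlapped wild type (log2 0.16, adjusted p 0.199). By gene bounds Kmt2e overlaps Srpk2 on the opposite strand (mean 12.1 FPKM). Overlap of their exons was not examined, and whether reads were counted by strand is not given in the sources used here. How far reads of one gene affect the value of the other is therefore not known.

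Of the SETD1 pair, Setd1b passed the test and Setd1a did not, a difference between the genes that was not itself tested. Setd1b read 16.2, 16.3 and 15.5 FPKM in wild-type libraries. The other 15, at 16.6 to 24.8, all stood above them. It rose in Dyrk1 libraries to 22.7 ± 1.43 FPKM (log2 0.48, adjusted p 0.00594) and in Mef2d libraries to 21.3 ± 1.64 (log2 0.39, adjusted p 0.0128), and reached 19.8 ± 3.51 in Mef2c libraries (log2 0.28, adjusted p 0.0609). Setd1a, the least abundant of the 10 per length, spanned only 6.51 to 8.34 FPKM over all 18 libraries. Its values against wild type were 0.15, 0.10 and 0.11 in Dyrk1, Mef2c and Mef2d libraries, with adjusted p of 0.146, 0.342 and 0.283 and 95% intervals that end at or below 0.30.

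Among the demethylases, Kdm5a moved like the methyltransferases and the other two did not pass. Kdm5a read 12.96, 12.7 and 11.35 FPKM in wild-type libraries, below the 13.8 to 19.9 of the other 15. It rose in Dyrk1 (log2 0.44, adjusted p 0.0105), Mef2c (log2 0.34, adjusted p 0.0284) and Mef2d libraries (log2 0.38, adjusted p 0.0156). By gene bounds it overlaps Ccdc77 on the opposite strand (mean 4.09 FPKM), with the same limits on exons and strand as for Kmt2e. Kdm5b read 8.74, 8.11 and 7.56 FPKM in wild type and 6.69, 7.52 and 10.2 in Dyrk1 libraries, a wide group whose mean matched wild type (log2 -0.02, 95% interval -0.25 to 0.22). Kdm5b in Mef2d libraries lay between 9.40 and 9.73 FPKM, above wild type, without passing the test (log2 0.21, adjusted p 0.189). Kdm5c, the X-linked member, read 22.5, 24.4 and 28.2 FPKM in Dyrk1 and 20.7 to 21.7 in wild-type libraries (log2 0.22, adjusted p 0.0713), and in Mef2c libraries its difference was 0.005 (95% interval -0.17 to 0.17).

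Counted together, 7 of the 10 genes rose and 0 fell in Dyrk1 minus wild type, where 11.1% of all tested genes rose. The 7 were Kmt2a, Kmt2b, Kmt2c, Kmt2d, Kmt2e, Setd1b and Kdm5a. In Mef2c minus wild type 3 rose (Kmt2a, Kmt2b and Kdm5a) against 12.9% of all tested genes, and in Mef2d minus wild type 7 rose against 13.9%, named as for Dyrk1. All 3 comparisons reuse the wild-type libraries of the HDAC contrasts that chose the family, so these counts are not independent of that choice. The median difference of the 10 genes was 0.44, 0.31 and 0.39 in that order, and the median of all tested genes 0.02, 0.04 and 0.04. In Dyrk1 libraries 9 of the 10 stood above all wild-type libraries, as did 17.8% of tested genes, in Mef2c libraries 4 (23.5% of tested genes) and in Mef2d libraries 8 (25.9%). Over all 15 labelled libraries at once, 4 of the 10 (Kmt2a, Kmt2b, Setd1b and Kdm5a) lay above every wild-type library, as did 697 of 12223 tested genes (5.7%). Those 15 include the HDAC1 and HDAC2 libraries behind the choice of the family, so this count is a description only. With median-of-ratios scaling (RLE) the rises and falls over all genes were 8.94% and 7.53% for Dyrk1, 8.79% and 9.04% for Mef2c and 10% and 11% for Mef2d, in place of falls of 6.19%, 6.06% and 7.95% beside the rises above, and 7, 2 and 7 of the 10 genes rose.

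The counts varied with single libraries, and so did the share of all tested genes that rose. The Dyrk1 count was 4 without Dyrk1 replicate 2, Dyrk1 replicate 3, wild-type replicate 1 or wild-type replicate 3. The share of all genes was then 8.06%, 6.01%, 8.1% and 6.56%, against 11.1% with all libraries. In a fit of the 6 Dyrk1 and wild-type libraries alone the count was 0 and the share 0.245%. The Mef2c count was 1 without Mef2c replicate 1 or wild-type replicate 3 (6.52% and 6.46% of all genes) and 6 without Mef2c replicate 3 (11.7%). The Mef2d count was 4 without Mef2d replicate 1 (7.18%) and 3 without wild-type replicate 3 (5.85%). Without the B-cell-rich libraries the counts were 8, 2 and 6, where 12.3%, 7.6% and 8.07% of all tested genes rose. Limma's test called 0 of the 7 B cell markers in each of the 3 comparisons, and 1, 1 and 0 had an unadjusted p under 0.05.

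In the contrasts that drew attention to the family, the same 10 genes are described only. Mean Kmt2a was 34.9 ± 2.18 FPKM in HDAC1 and 38.3 ± 6.95 in HDAC2 libraries, log2 differences of 1.11 and 1.23 from wild type (standard error 0.19). Mean Kmt2c was 20.9 ± 0.339 and 19.9 ± 3.11 FPKM, differences of 1.06 and 0.98 (standard error 0.16). Kmt2d differed by 0.80 and 0.92, Kdm5a by 0.49 and 0.46, and Setd1a by 0.19 in each. The median of the 10 was 0.39 in HDAC1 and 0.48 in HDAC2 libraries. HDAC1 and HDAC2 libraries differed from each other by -0.14 (Kmt2b) to 0.08 (Kdm5c), with a median of -0.002. Plasma cell marker sums were also high in these groups. Of the 7 markers, 2 were called higher in HDAC1 and 6 in HDAC2 libraries, where 10.2% and 16.1% of all tested genes rose. Their part in the result was not tested.

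**Figure D2:**
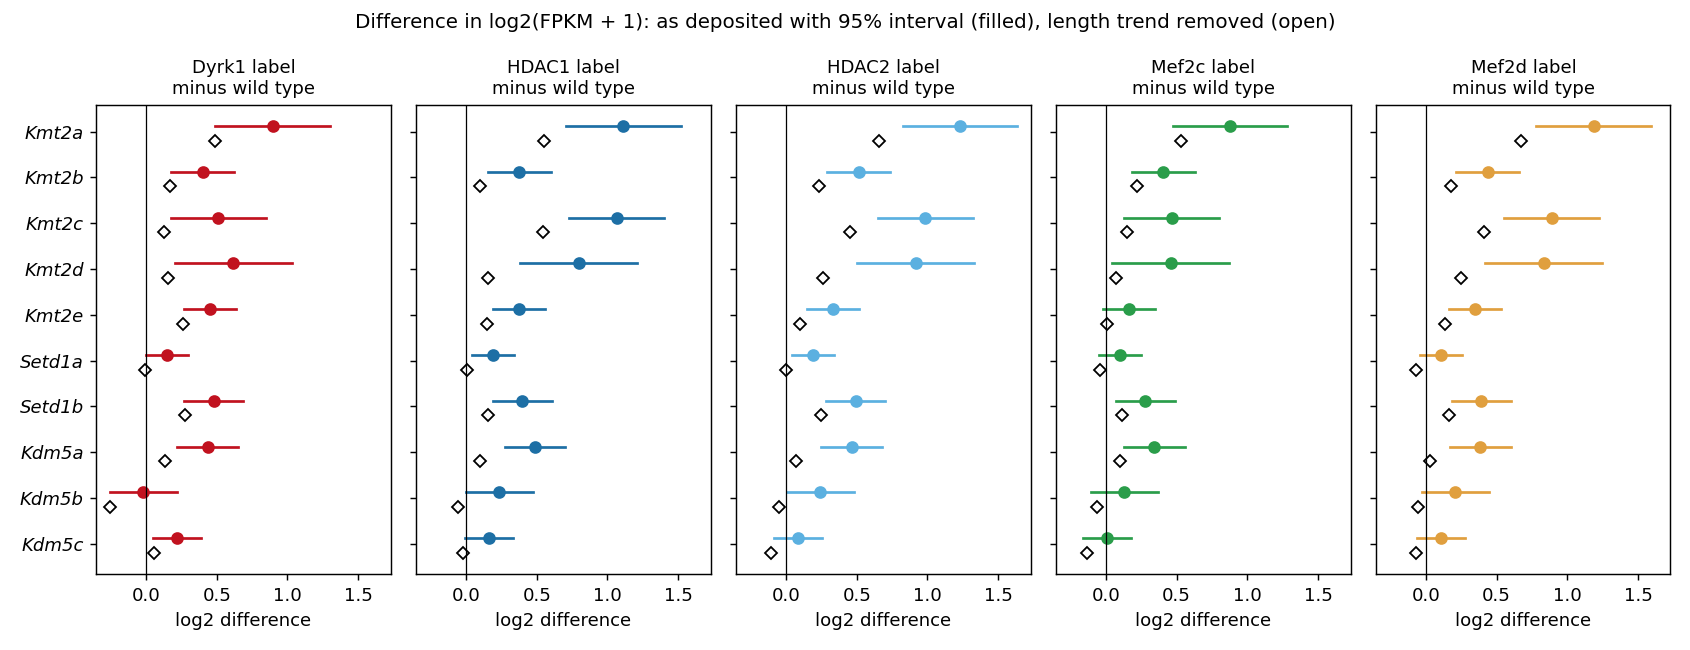
Difference of each of the 10 genes from wild type in log2(FPKM + 1) (horizontal axis), by label. Filled points with bars are the fitted difference and its 95% interval, and open diamonds are the difference after removal of each library's trend on gene length. Kmt2a has the largest filled value in all 5 labels (0.88 to 1.23), and every diamond lies to the left of its filled point.

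Comparisons among the Dyrk1, Mef2c and Mef2d labels take their means from none of the libraries behind the choice of genes. Their standard errors and adjusted p-values do draw on all 18 libraries, through the shared estimate of spread. In Dyrk1 minus Mef2c, 1 of the 10 genes rose, against 8.7% of tested genes. It was Kmt2e, at 45.9 ± 3.32 against 37.3 ± 2.70 FPKM (log2 0.29, standard error 0.09, adjusted p 0.0280), with all 3 Dyrk1 libraries above all 3 Mef2c libraries, as for 2 of the 10 genes and 13.6% of tested genes. Its adjusted p was 0.0684 without Dyrk1 replicate 2, 0.0905 without Dyrk1 replicate 3, 0.128 without Mef2c replicate 3 and 0.102 in a fit of the 2 groups alone. Kdm5c was next (log2 0.21, 95% interval 0.04 to 0.38, adjusted p 0.0750). Without the B-cell-rich libraries Kmt2d, Setd1b and Kdm5c passed too, making 4, where 7.27% of tested genes rose.

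In Mef2c minus Mef2d, limma called 0 of the 10 genes, with 3.06% of tested genes called in either direction, and 1 had an unadjusted p under 0.05. That gene was Kmt2c, at 13.8 ± 4.15 against 18.5 ± 1.74 FPKM (log2 -0.42, 95% interval -0.76 to -0.09, adjusted p 0.227). Kmt2e alone of the 10 had all 3 Mef2c libraries below all 3 Mef2d libraries, as did 8.45% of tested genes. All 10 differences were below 0, with a median of -0.11 against 0.01 for all tested genes. Without Mef2c replicate 1, Kmt2c (log2 -0.64, adjusted p 0.0117) and Kmt2d (log2 -0.64, adjusted p 0.0427) were called lower, as were 1.58% of tested genes. In Dyrk1 minus Mef2d, 0 of the 10 were called against 17% of tested genes, and 1 had an unadjusted p under 0.05. It was again Kmt2c, at 13.9 ± 0.355 against 18.5 ± 1.74 FPKM (log2 -0.38, 95% interval -0.72 to -0.04, adjusted p 0.117), whose 3 Dyrk1 libraries lay below all 3 Mef2d libraries, as in 15.7% of tested genes. Kmt2a differed by -0.29 in this comparison (95% interval -0.70 to 0.11) and by -0.31 between Mef2c and Mef2d (95% interval -0.71 to 0.09), so intervals of this width leave room for a difference in either direction.

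Ordered by group mean, wild type was lowest for 9 of the 10 genes, and for Kdm5b the Dyrk1 mean was marginally lower (8.13 against 8.14 FPKM). The highest group was HDAC2 for Kmt2a, Kmt2b, Kmt2d, Setd1b and Kdm5b, HDAC1 for Kmt2c, Setd1a and Kdm5a, and Dyrk1 for Kmt2e and Kdm5c. Most neighbours in these orders overlapped. The exceptions were wild type and the group next to it for Kmt2a, Kmt2b, Setd1b and Kdm5a, Dyrk1 and Mef2d for Kmt2c, and Mef2c and HDAC2 for Kmt2e. The highest group mean was 2.45 times the lowest for Kmt2a, 2.19 for Kmt2c, 1.94 for Kmt2d and 1.17 for Setd1a.

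All 10 are long genes, and long genes as a whole were lower in wild type. The gene length behind the deposited values, recovered from the values themselves, was 16470 bases for Kmt2a, 8469 for Kmt2b, 14967 for Kmt2c, 19823 for Kmt2d, 7317 for Kmt2e, 6487 for Setd1a, 7663 for Setd1b, 10969 for Kdm5a, 8714 for Kdm5b and 6449 for Kdm5c. Each lies in the longest decile of tested genes, which starts at 5977 bases. In that decile the median difference from wild type was 0.22 for Dyrk1, 0.16 for Mef2c, 0.23 for Mef2d, 0.23 for HDAC1 and 0.24 for HDAC2. Of its 1223 genes 35.6%, 25.9%, 42.0%, 35.8% and 45.9% were called higher in that order, so the share of the 10 genes that rose in the first 3 is to be read against these shares as well as against all genes. Spearman's rho between length and difference over the 12223 genes, which share the same libraries, was 0.31, 0.25, 0.29, 0.27 and 0.25. It was -0.11 for Mef2c minus Mef2d, 0.07 for Dyrk1 minus Mef2c and 0.01 for Dyrk1 minus Mef2d.

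**Figure D3:**
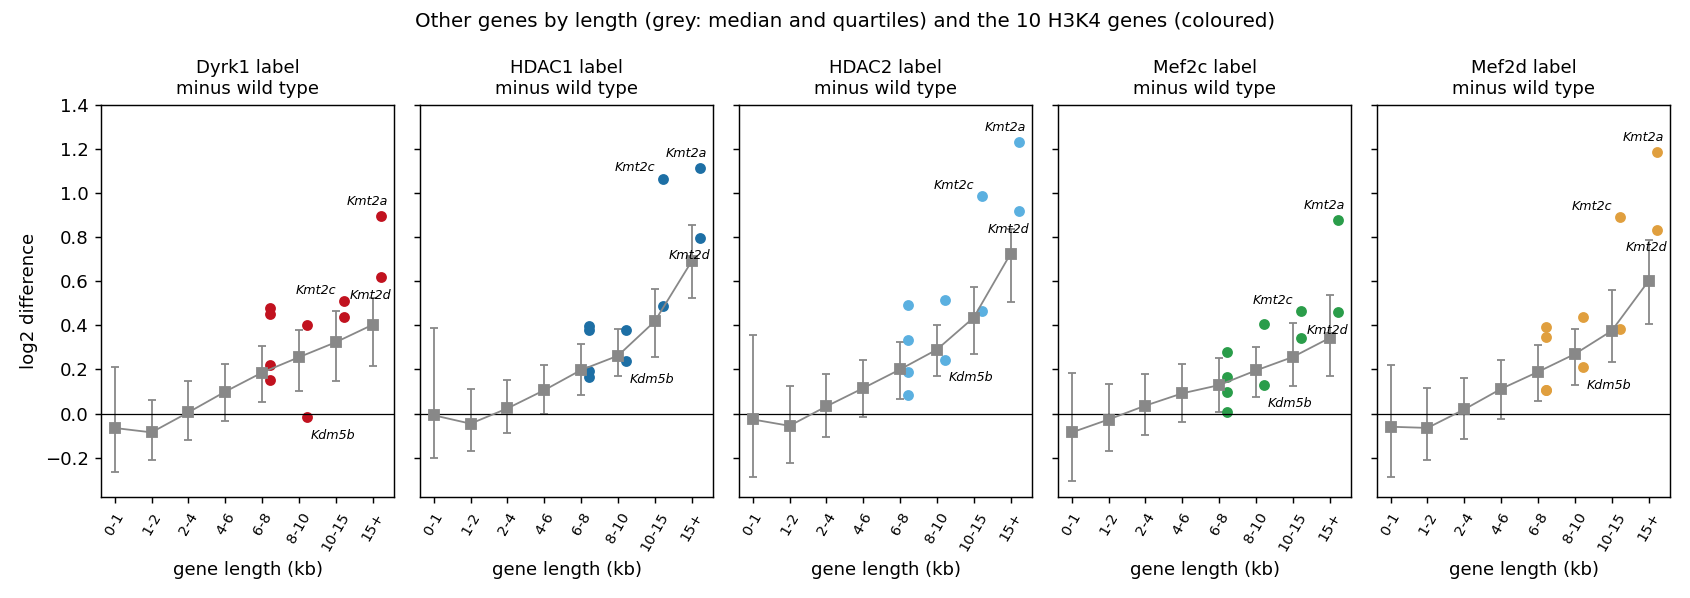
Difference from wild type in log2(FPKM + 1) (vertical axis) by recovered gene length in kb (horizontal axis, 8 bins), by label. Grey squares and bars are the median and quartiles of the other genes in a bin, and coloured points are the 10 genes. The grey medians climb with length in all 5 labels from 2 kb upward, and Kmt2a lies above the upper quartile of the 28 other genes of 15 kb or more in the Dyrk1, Mef2c and Mef2d labels.

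Placed among other genes of like length, without a test, the 10 genes differed among themselves and between labels. The 28 other genes of at least 15 kb had a median of 0.40 (upper quartile 0.52) in Dyrk1, 0.34 (0.54) in Mef2c and 0.60 (0.79) in Mef2d minus wild type. Kmt2a exceeded the upper quartile in each, and Kmt2d did so in Dyrk1 and Mef2d but not in Mef2c libraries. Kmt2c exceeded the upper quartile of the 149 other genes of 10 to 15 kb (0.47, 0.41 and 0.56 in that order), but at 14967 bases it sits at the top of that bin. Set against the genes of at least 15 kb, Kmt2c exceeded the upper quartile in Mef2d libraries only. Kdm5a, in the 10 to 15 kb bin, stayed within the quartiles in all 3. Kmt2b exceeded the upper quartile of the 250 other genes of 8 to 10 kb in all 3 labels, and Kdm5b in none. Among the 770 other genes of 6 to 8 kb, Setd1b exceeded the upper quartile in all 3, Kmt2e in Dyrk1 and Mef2d, and Setd1a and Kdm5c in none. In the HDAC contrasts, which chose the family, the genes of at least 15 kb had medians of 0.69 and 0.72, and no placement is read from them.

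Each library's trend on recovered length was then removed, an alternative chosen after seeing the data. In Dyrk1 minus wild type 3 of the 10 genes rose and 1 fell, where 6.89% of tested genes rose and 6.72% fell. In Mef2c minus wild type 1 rose (9.19% of tested genes) and in Mef2d minus wild type 2 rose (8.39%). The 1 fall in Dyrk1 and the 1 rise in Mef2c are near those shares. Kmt2a passed in all 3 comparisons, with log2 differences of 0.49 (adjusted p 0.00766), 0.53 (adjusted p 0.00273) and 0.67 (adjusted p 0.000682). Kmt2e (log2 0.26, adjusted p 0.0108) and Setd1b (log2 0.28, adjusted p 0.0186) also passed in Dyrk1 and Kmt2c (log2 0.41, adjusted p 0.0137) in Mef2d libraries. Kdm5b, level with wild type in Dyrk1 libraries before, was then called lower (log2 -0.26, adjusted p 0.0415). Kmt2b, Kmt2d and Kdm5a passed in none of the 3. The medians of the 10 became 0.15, 0.08 and 0.15, and in the HDAC contrasts 0.13 and 0.17, with Kmt2a at 0.55 and 0.66 and Kmt2c at 0.55 and 0.46. Kmt2e in Dyrk1 minus Mef2c kept its call (log2 0.26, adjusted p 0.00574), and Kdm5c joined it (log2 0.19, adjusted p 0.0141).

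**Figure D4:**
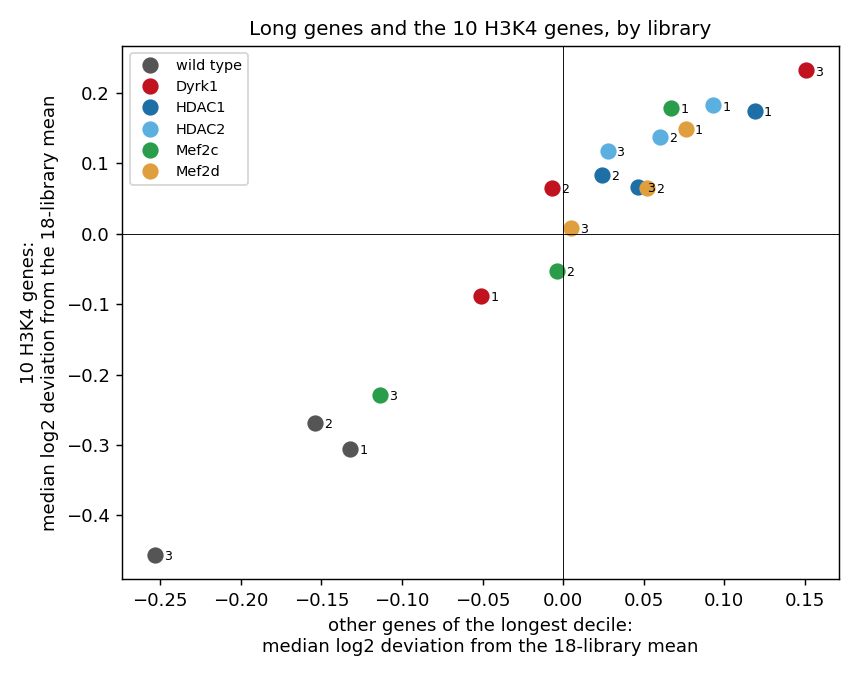
Median deviation from the 18-library mean, in log2(FPKM + 1), of the 10 genes (vertical axis) against that of the 1213 other genes in the longest decile (horizontal axis). Each point is a library, numbered by replicate and coloured by label. The 3 wild-type libraries lie at the lower left (-0.46 to -0.27 for the 10 genes, -0.25 to -0.13 for the others), next to Mef2c replicate 3.

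Library by library, the 10 genes followed the other long genes. The 1213 other genes of the longest decile had a median deviation from the 18-library mean of -0.13, -0.15 and -0.25 in wild type, and the 10 genes -0.31, -0.27 and -0.46. Mef2c replicate 3 was the next lowest on both (-0.11 and -0.23), and Dyrk1 replicate 3 the highest on both (0.15 and 0.23). The shortest decile had deviations of -0.06, 0.09 and -0.07 in wild type, inside the range of the other 15 libraries (-0.20 to 0.11). What sets the length trend was not tested, and with wild type at one end of it the trend and the labels cannot be told apart.

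Genes whose levels were most like Kmt2a over the 18 libraries were themselves very long. The 5 with the highest Pearson r of log2(FPKM + 1) were Herc1 (0.991), Akap9 (0.987), 4932438A13Rik (0.984), Birc6 (0.983) and Cep350 (0.982), with exon unions of 16520 to 32279 bases. Herc1, for example, averaged 9.77 FPKM in wild type and 16.2 in the other 15 libraries. Among the 10 genes Kmt2d was closest to Kmt2a (r 0.969, rank 13 of all tested genes), followed by Kmt2b (0.943), Kmt2c (0.916) and Setd1b (0.915), and Kdm5c was least like it (0.528). These r values describe libraries that share the 6 labels and the length trend.

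The partners of these enzymes were counted by list, beside 11.1%, 12.9% and 13.9% of all tested genes that rose in Dyrk1, Mef2c and Mef2d minus wild type. The 4 COMPASS core genes were Wdr5, Rbbp5, Ash2l and Dpy30, none of them in the longest decile by exon length. Of these, 1 rose in Dyrk1 and 1 in Mef2c minus wild type. In Mef2d minus wild type 1 fell, where 7.95% of all tested genes fell. Rbbp5, which anchors the catalytic subunit, rose from 18.5 ± 0.724 FPKM in wild type to 21.9 ± 1.46 in Dyrk1 (log2 0.23, adjusted p 0.0376) and to 21.9 ± 1.57 in Mef2c libraries (log2 0.23, adjusted p 0.0367). Ash2l, which stimulates it, fell from 22.6 ± 1.65 FPKM to 19.3 ± 0.842 in Mef2d libraries (log2 -0.22, adjusted p 0.0128). The core's median difference was -0.08, -0.08 and -0.20 in the 3 comparisons, below the median of all genes.

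Of 13 partners of some but not all of these enzymes, 4, 2 and 3 rose in Dyrk1, Mef2c and Mef2d minus wild type. The shares of all genes are the same as above, and 0 of the 13 fell. Bod1l, a partner of the SETD1 enzymes, rose from 8.14 ± 0.680 FPKM to 12.7 ± 2.33, 12.03 ± 2.10 and 12.8 ± 1.29 (log2 0.57, 0.50 and 0.59). Its exon union of 11995 bases is in the longest decile. Kdm6a, the demethylase of histone H3 lysine 27 in the KMT2C and KMT2D complexes, rose from 10.4 ± 0.251 FPKM to 12.1 to 12.4 in the 3 groups (log2 0.22, 0.21 and 0.24, adjusted p 0.0109, 0.0121 and 0.00566). Hcfc1, a SETD1 and KMT2A partner, was higher in Dyrk1 libraries (42.2 ± 7.35 FPKM) than in wild type (31.1 ± 2.55, adjusted p 0.0117), Mef2c (31.1 ± 2.47, adjusted p 0.00723) and Mef2d libraries (33.1 ± 0.819, adjusted p 0.0326).

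Of 6 other genes listed as H3K4 methyltransferases 5 passed the filter. In Dyrk1 minus wild type 2 rose and 1 fell, where 11.1% of all tested genes rose and 6.19% fell. In Mef2c minus wild type 2 rose (12.9% of all tested genes) and in Mef2d minus wild type 3 rose (13.9%). What each of them methylates in Treg was not measured. Setd7, which adds single methyl groups, rose in all 3 (log2 0.26, 0.23 and 0.38), as did Ash1l. Smyd2 was lower in Dyrk1 libraries (10.3 ± 1.51 FPKM) than in wild type (18.3 ± 0.898, log2 -0.78, standard error 0.11, adjusted p 0.000683), and also lower than in Mef2c (16.7 ± 1.90) and Mef2d libraries (16.2 ± 2.05). Its exon union of 2717 bases makes it shorter than any of the 10 genes. The levels of Ash1l, of 14838 bases, went from 7.08 ± 0.724 FPKM to 10.3 ± 0.939 in Dyrk1, 9.32 ± 1.81 in Mef2c and 11.5 ± 1.04 in Mef2d libraries. Of 5 other demethylases 1 rose in Dyrk1 minus wild type, where 11.1% of all tested genes rose. In Mef2c minus wild type 1 fell, where 6.06% of all tested genes fell. Kdm2b, a CpG-binding demethylase, was at 25.3 ± 3.21 FPKM in Dyrk1 and 19.6 ± 1.48 in wild-type libraries (adjusted p 0.0180), and Kdm5d, the Y-linked paralog of Kdm5c, fell to 6.63 ± 0.844 from 7.94 ± 0.533 in Mef2c libraries (adjusted p 0.0488).

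Readers of the mark numbered 13, of which 4 rose in Dyrk1, 4 in Mef2c and 5 in Mef2d minus wild type, beside 11.1%, 12.9% and 13.9% of all tested genes, and 0 fell. Bptf, the large subunit of the NURF remodelling complex, rose from 18.5 ± 1.53 FPKM to 26.0 ± 2.64, 23.7 ± 2.94 and 26.6 ± 1.35 (log2 0.47, 0.34 and 0.50). Ing5, of the ING family of PHD finger proteins and with an exon union of 4729 bases, rose from 8.69 ± 0.373 FPKM to 11.3 ± 1.41, 11.2 ± 0.0729 and 11.8 ± 0.835. Large chromatin regulators outside the H3K4 pathway were also counted. Of 31 such genes, 25 of them in the longest decile by exon length, 17, 8 and 25 rose and 0 fell. Their medians were 0.31, 0.24 and 0.36. In that decile, which starts at 9316 bases, 30.4%, 24.7% and 38.5% of all genes rose. The 31 genes had a median exon union of 13971 bases. By recovered length, 29.2%, 21.4% and 33.6% of other genes rose at 6 to 8 kb. The shares were 48.3%, 39.6% and 65.1% at 10 to 15 kb. Atrx, a chromatin remodeller, averaged 23.1 ± 3.69 FPKM in wild-type libraries and rose to 39.6 ± 5.97 in Dyrk1, 30.7 ± 5.01 in Mef2c and 32.8 ± 1.76 in Mef2d libraries. Tet2, which oxidises methylcytosine, rose from 3.89 ± 0.373 FPKM to 6.05 ± 0.870, 5.26 ± 0.885 and 6.24 ± 0.515.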

How the data were processed

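RNA was sequenced as paired reads from sorted Treg in 18 libraries, and 1 table of values per gene was analysed. Per the submitters' processing notes, STAR, HTSeq and the mm10 build were used, and versions, annotation and strand setting are not given in the sources used here. FPKM is the unit taken for what the authors deposited, read from the numbers themselves since no label names it. Whole reads, within 0.03 of an integer, were recovered for 23799 gene identifiers above 0, with 1 fitted length per gene, which equalled the GENCODE M21 exon union for 6779. Because lengths were fitted, no count test was run. The 12223 genes that reached 1 FPKM in 3 or more libraries entered limma 3.58.1 (R 4.3.3) as log2(FPKM + 1), 6 group means being fitted to the 18 libraries jointly, with a variance trend and 12 residual degrees of freedom. Adjusted p-values are Benjamini-Hochberg values over all 12223 genes, with a threshold of 0.05.

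The members and lists were chosen with earlier results of these data known. Named were all 10 genes, up to 4 genes per list that passed in a tested comparison, by smallest p, and the 5 genes most like Kmt2a. Alternatives varied the pseudocount, filter, scaling, length, span and GC trends (lowess span 0.3), libraries and replicate block. The fit was tested on simulated data.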

Additional observations from a re-analysis of the deposited data

How the results depend on the processing

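For the 10 genes in the 6 tested comparisons no called value reversed under the alternatives run. There 928 values kept direction and side of the threshold, 68 lost a call and 24 gained one. Most of the 928 were not called to begin with, so that number does not give how many calls held. Calls against wild type numbered 7 (Dyrk1), 3 (Mef2c) and 7 (Mef2d). After removal of the recovered length trend they were 4 (3 higher and 1 lower), 1 and 2, where 6.89%, 9.19% and 8.39% of tested genes rose. In that Dyrk1 comparison 6.72% of tested genes fell. Mef2d had 4 after removal of the exon length trend (8.72% of tested genes) or of exon length and GC trends (8.28%). Fits of the 2 groups alone called 0 in Dyrk1 minus wild type, where 28 genes rose and 34 fell among 11426. They called 1 higher in Mef2c minus wild type (7.97% of genes rose), 0 in Dyrk1 minus Mef2c and 1 lower in Dyrk1 minus Mef2d (3.32% fell). Dyrk1 minus Mef2c had 2 calls after removal of exon length, exon length and GC, span or recovered length trends. The shares of tested genes that rose were 10.5%, 9.52%, 10.6% and 10.9% in that order. It had 4 calls without the 3 B-cell-rich libraries, where 7.27% rose. The median of the 10 genes in HDAC1 minus wild type was 0.322 with RLE scaling, 0.219 after removal of the exon length trend, 0.239 with GC content too and 0.127 for recovered length. In HDAC2 minus wild type it was 0.247, 0.293, 0.400 (span) and 0.166.

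Leaving out 1 replicate at a time gave 4 to 7 calls for Dyrk1, 1 to 6 for Mef2c and 3 to 7 for Mef2d minus wild type. The share of all tested genes that rose ranged from 6.01% to 13.2%, 6.46% to 12.4% and 5.85% to 13.7% in that order. For Mef2c minus Mef2d 0 to 2 were called lower, with 2 without Mef2c replicate 1 (1.58% of tested genes fell). For Dyrk1 minus Mef2c 0 to 2 were called higher, with 2 without Dyrk1 replicate 1 (8.04% rose) or Mef2c replicate 1 (7.67%). In that comparison 1 was called lower without Dyrk1 replicate 3 (9.6% fell). For Dyrk1 minus Mef2d 0 to 1 were called lower, with 1 without Dyrk1 replicate 3 (7.22% fell). The medians were 0.355 to 0.443 in HDAC1 and 0.439 to 0.497 in HDAC2 minus wild type and -0.061 to 0.031 in HDAC1 minus HDAC2. The cause of these shifts was not tested. The replicate block gave 7, 4 and 7 calls against wild type, where 10.1%, 12% and 12.8% of tested genes rose. It gave 0, 1 and 0 in the comparisons of Mef2c with Mef2d, Dyrk1 with Mef2c (8.25% rose) and Dyrk1 with Mef2d. Correlations of deviations ran from -0.45 to 0.46 between same-numbered libraries, with 18 of 45 over 0.1 against 26 of 90 between different numbers. All 3 B-cell-rich libraries carry number 1. Not every same-numbered pair was over 0.1, and 8 of 18 libraries correlated best with their own number, so the numbers were not taken as pairs.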
